A study of Mus musculus with 6 samples.

Results

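Dlk1, Ndn, Mest and Asb4 are imprinted genes, most of them tied to embryonic growth, that were measured in mouse embryonic fibroblasts without CypD (cyclophilin D, a prolyl isomerase of the mitochondrial matrix whose gene is Ppif) and in wild-type fibroblasts. They were taken by symbol from the annotation of the array's probes, and they are 4 of the 7606 genes that the annotation names. They have 8 probes, which make up the results: 2 for Dlk1, 1 for Ndn, 3 for Mest and 2 for Asb4. The genes were chosen because earlier results of these arrays showed them higher in CypD knockout cells, so their levels are given as a description, without a test. The study hybridised biotin-labelled total RNA of fibroblasts taken from C57BL/6 embryos at stage E13.5 to Illumina bead arrays. CypD knockout fibroblasts filled 3 arrays (A, B and C) and wild-type fibroblasts the other 3 (A, B and C). No treatment was given to either group in the labels, and both share strain, stage and cell type. Whether a letter stands for a separate embryo or culture is not stated, so p-values cover no more than the scatter of these arrays, possibly technical.

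An imprinted gene is expressed mainly from the allele of 1 parent, because a nearby control region carries DNA methylation on 1 parental chromosome only. Imprinted genes lie in clusters that share such a region, many of them act on growth of the fetus and placenta, and many are shut down after birth. Dlk1 encodes a transmembrane protein with EGF repeats, related to Notch ligands, that restrains the differentiation of preadipocytes. Ndn encodes necdin, a MAGE family protein that restrains cell cycle progression and binds E2F factors. Mest encodes a protein of the alpha/beta hydrolase fold. Asb4 encodes the substrate-binding part of a cullin ubiquitin ligase. Dlk1, Ndn and Mest are known to be expressed from the paternal allele and Asb4 from the maternal allele. The arrays do not separate the alleles.

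Because imprinted genes are controlled through methylation of CpG dinucleotides, a window at an annotated transcript start of each gene is shown with its CpGs in capitals. The 4 genes lie on 3 chromosomes of the RefSeq assembly GRCm38.p6, all on the plus strand: Dlk1 at chr12:109452485-109463336, Ndn at chr7:62348277-62349928, Mest at chr6:30733506-30748466 and Asb4 at chr6:5383386-5433022. The windows below are RefSeq sequence of 300 bases, from 250 bases before an annotated transcript start to 50 after it. They lie at chr12:109452573-109452872 for Dlk1, chr7:62348027-62348326 for Ndn, chr6:30737800-30738099 for Mest and chr6:5390160-5390459 for Asb4. Where a gene had several windows, the one with the most CpGs is printed. Only the Ndn window spans the first base of its gene. The printed windows of Dlk1, Mest and Asb4 lie wholly within the gene spans given above, at a transcript start further in.
Dlk1: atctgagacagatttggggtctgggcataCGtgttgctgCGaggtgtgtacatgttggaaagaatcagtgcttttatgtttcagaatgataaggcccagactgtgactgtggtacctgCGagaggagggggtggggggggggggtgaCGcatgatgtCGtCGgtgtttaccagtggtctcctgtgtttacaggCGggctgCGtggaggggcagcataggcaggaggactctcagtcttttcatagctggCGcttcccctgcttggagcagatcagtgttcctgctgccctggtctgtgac
Ndn: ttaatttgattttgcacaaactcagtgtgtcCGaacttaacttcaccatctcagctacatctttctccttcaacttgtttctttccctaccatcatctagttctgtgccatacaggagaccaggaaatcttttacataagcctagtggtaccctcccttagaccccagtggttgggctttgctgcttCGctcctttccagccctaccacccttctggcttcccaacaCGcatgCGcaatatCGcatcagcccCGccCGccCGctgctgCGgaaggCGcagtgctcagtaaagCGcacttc
Mest: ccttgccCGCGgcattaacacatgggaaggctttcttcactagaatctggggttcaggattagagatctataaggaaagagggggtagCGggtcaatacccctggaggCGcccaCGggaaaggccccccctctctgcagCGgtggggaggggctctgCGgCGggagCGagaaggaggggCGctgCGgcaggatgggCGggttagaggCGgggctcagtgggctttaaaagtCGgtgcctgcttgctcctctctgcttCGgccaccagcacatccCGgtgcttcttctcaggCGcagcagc
Asb4: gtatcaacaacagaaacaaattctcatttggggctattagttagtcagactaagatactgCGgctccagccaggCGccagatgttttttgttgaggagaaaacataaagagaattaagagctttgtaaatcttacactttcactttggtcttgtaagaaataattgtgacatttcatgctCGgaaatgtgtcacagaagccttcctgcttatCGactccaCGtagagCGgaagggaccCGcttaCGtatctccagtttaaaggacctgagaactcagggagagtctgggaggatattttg

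The window of Mest held 17 CpGs, that of Ndn 11, that of Dlk1 9 and that of Asb4 8. Among the 32851 mouse windows of this length the median was 7 CpGs. At least 17 CpGs were present in 31.4% of them, at least 11 in 41.4%, at least 9 in 45.8% and at least 8 in 48.6%. The upstream window of Mest, at its first annotated start, held 8 CpGs, and the upstream window of Asb4 held 6. On both strands the GC box GGGCGG, which itself contains a CpG, occurred 2 times in the Ndn window, 1 time in the Mest window and 0 times in the windows of Dlk1 and Asb4 printed here, and it occurred in 35.7% of all windows. Neither TATAAA (present in 13.6% of all windows) nor GCCATNTT, a core of the YY1 site (present in 6.05%), was found in any window of the 4 genes. The array data carry no methylation reading, so these letters describe the genes only.

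The deposited array medians were 229, 226.5 and 229.2 intensity units in CypD knockout cells, and 251.3, 238 and 223.4 in wild-type cells. The targeted gene Ppif had a log2 intensity of 12.26 ± 0.086 in CypD knockout cells and 13.63 ± 0.067 in wild-type cells (SD, n = 3 arrays each). Its log2 difference was -1.37 (limma adjusted p = 2.96e-09), so a signal remained in the knockout; the position of its probe relative to the deleted part is not given in the files. The log2 intensities of all probes correlated at 0.9942 to 0.9945 between arrays within the knockout, 0.9925 to 0.9942 within the wild type and 0.9845 to 0.9855 between the genotypes. Of the 27168 probes bright enough to test, 5423 (20.0%) passed an adjusted p under 0.05, 9.78% higher and 10.2% lower in the knockout. Among genes with a named probe the share was larger, 3319 of 7605 (43.6%, with 21.8% higher and 21.8% lower), and that share is the one set beside each list of genes below. Of the 7606 named genes 7605 were tested. A listed gene without a tested probe therefore almost always lacked a named probe, and its level was not read.

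Dlk1 was higher in CypD knockout cells on both of its probes. On its brighter probe the deposited intensity was 33642, 30711 and 31764 in CypD knockout arrays A, B and C, and 4525, 3930 and 4693 in wild-type arrays A, B and C. The lowest knockout array was several times brighter than the highest wild-type array. After background correction, log2 transformation and quantile normalization the probe stood at 15.02 ± 0.052 in CypD knockout cells and 12.01 ± 0.15 in wild-type cells (SD, n = 3). The log2 difference was 3.0 with a standard error of 0.073, or 8.02-fold. The dimmer Dlk1 probe gave 3305, 3449 and 3441 intensity units in the knockout, against 432.1, 451.9 and 494.9 in the wild type. Its log2 difference was 3.25 (SE 0.11), or 9.5-fold. Both probes separate the groups without overlap, and the wild-type cells were not without Dlk1 signal: their log2 levels on the brighter probe were 11.99, 11.88 and 12.18. Of all tested probes ordered by their difference, the Dlk1 probes stood at places 29 and 19 among those higher in the knockout.

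Ndn has a single probe. Its intensity was 11282, 11372 and 10900 in CypD knockout arrays A, B and C and 2221, 1729 and 1890 in wild-type arrays A, B and C. The 3 knockout arrays lay close together, with a log2 level of 13.49 ± 0.032, while the wild-type arrays spread more, at 10.81 ± 0.14 (SD, n = 3). The difference was 2.69 log2 units (SE 0.077), or 6.44-fold. Necdin is known as a protein of postmitotic neurons, and it is also present in mesenchymal cells.

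Mest showed a different size of difference on each of its 3 probes. The brightest gave 803.9, 783.5 and 825 intensity units in CypD knockout arrays, against 283.3, 248.4 and 246.4 in wild-type arrays. Its log2 level was 9.5 ± 0.019 in the knockout and 7.32 ± 0.096 in the wild type (SD, n = 3), a difference of 2.18 (SE 0.094) or 4.55-fold. The next probe had log2 levels of 8.73, 8.71 and 8.86 in the knockout and 6.8, 7.01 and 6.91 in the wild type, and differed by 1.86, or 3.63-fold. The dimmest had log2 levels of 7.83, 7.87 and 8.0 in the knockout, against 7.26, 7.18 and 6.93 in the wild type. It differed by 0.77 (SE 0.11), or 1.71-fold. Wild-type intensities of the Mest probes lay near the array medians, and the wild-type log2 mean of the second probe was 6.91, beside a limit for testing of 6.9. In the authors' processed table the differences of the 3 probes were 1.7, 1.32 and 0.51. The folds therefore hold only for the background correction used here. All 3 Mest probes had every knockout array above every wild-type array, and the spread in size between probes was larger than the error of each. Mest has several transcript starts in RefSeq, and where on its transcripts the probes lie is not given in the files.

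Asb4 stood close to the testing limit in wild-type cells. Its brighter probe gave 717.6, 811.8 and 720 intensity units in CypD knockout arrays and 194.9, 225.5 and 203.9 in wild-type arrays. The log2 level was 9.38 ± 0.15 in the knockout and 6.76 ± 0.29 in the wild type (SD, n = 3). The log2 difference was 2.62 (SE 0.14) with the background correction used here and ranged from 1.9 to 3.1 over the alternatives, so no fold is given. The other probe stood at 8.92, 8.57 and 9.06 in the knockout and at 6.86, 6.86 and 6.94 in the wild type, a difference of 1.97 (SE 0.12) under the same setting. Wild-type means of both Asb4 probes lay below the log2 level of 6.9 that served as the limit for testing, so these probes passed it through the knockout arrays. The files hold no detection call, so whether wild-type cells had Asb4 signal above background could not be read from them.

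**Figure D1:**
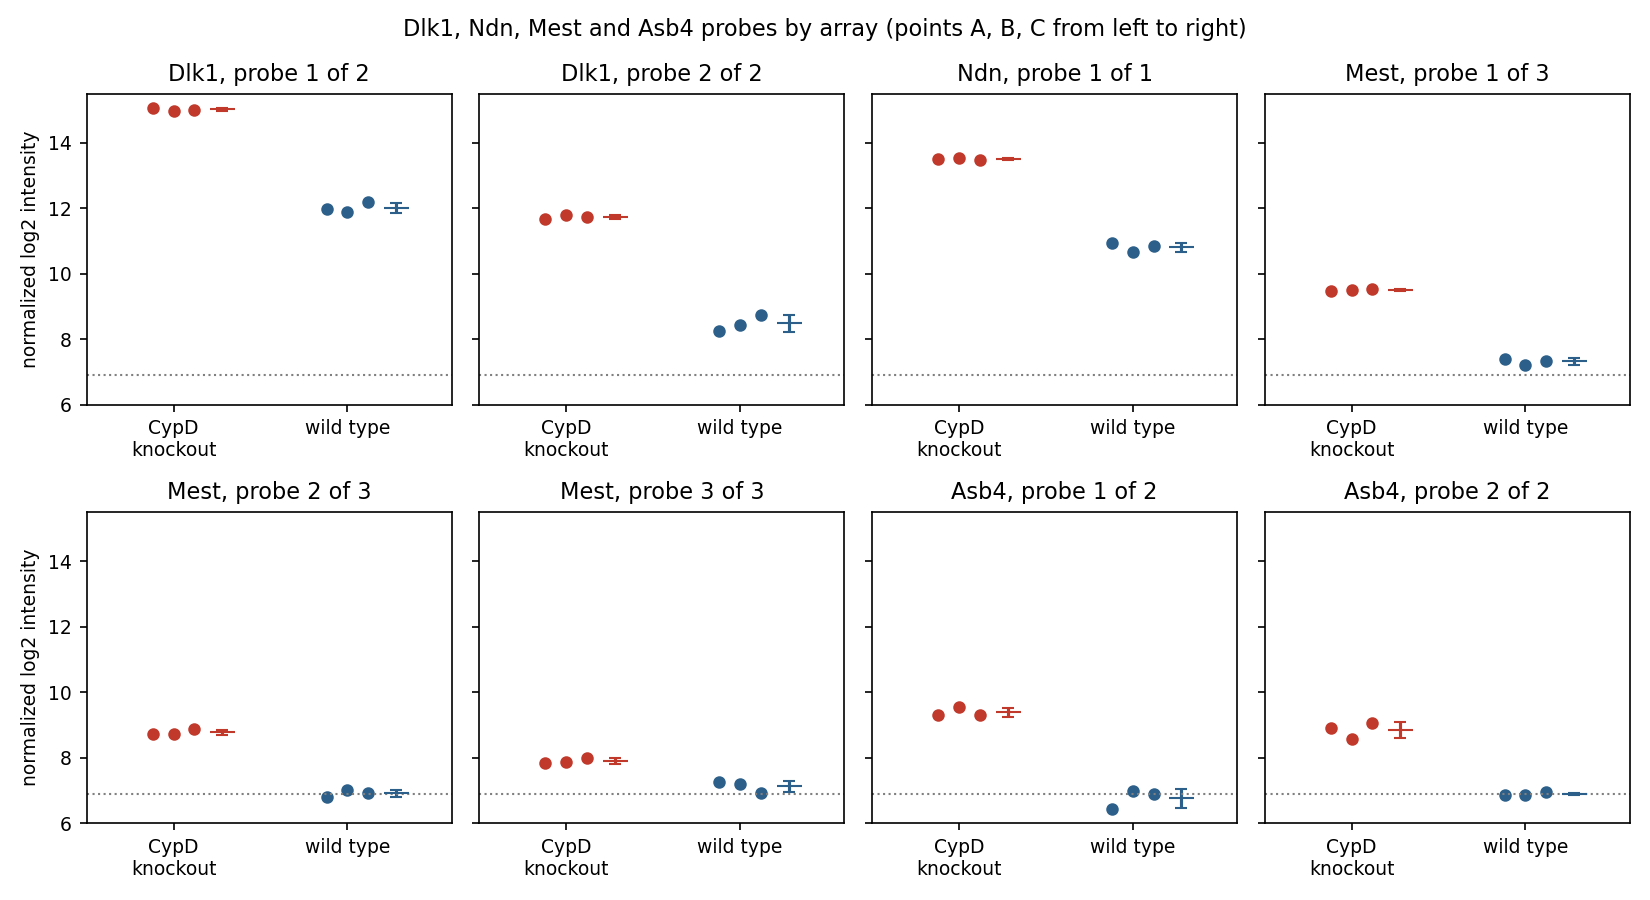
Normalized log2 intensity of the 8 probes of Dlk1, Ndn, Mest and Asb4 on each array, CypD knockout left and wild type right in each panel; points are arrays, the mark beside them is the group mean with its SD, and the dotted line is the testing limit of 6.9. The axis starts at 6. Every knockout array lies above every wild-type array on all 8 probes, with the wild-type Asb4 means below the line.

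All 8 probes passed the limit on dim probes, 6 of them also by their wild-type mean. On 8 of 8 probes every knockout array exceeded every wild-type array, which held for 16.9% of all tested probes. On 7 of 8 the difference was at least 1 log2 unit, which 1.31% of tested probes reached. These probes belong to genes chosen for that difference, so the counts are descriptive. The smallest member difference, on the dimmest Mest probe, was matched or exceeded by 558 of the 27168 tested probes. Such backgrounds hold all tested probes, with or without a gene name, while all 8 member probes are named. Calls were more frequent among named genes (43.6%) than among all probes (20.0%), and the shares among named probes alone were not computed. In bulk RNA of this kind, more cells that express a gene and more RNA per cell cannot be told apart.

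Across processing settings the size of the difference was steadier for Dlk1 and Ndn than for Mest and Asb4. The log2 difference ranged from 2.93 to 3.25 for Dlk1 and from 2.61 to 2.75 for Ndn over 15 alternatives. For Mest it ranged from 1.69 to 2.46 and for Asb4 from 1.9 to 3.1, with the background correction setting the ends of both ranges. In all of them the sign stayed the same, although changing the limit on dim probes or using the letters as blocks cannot alter the difference.

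**Figure D2:**
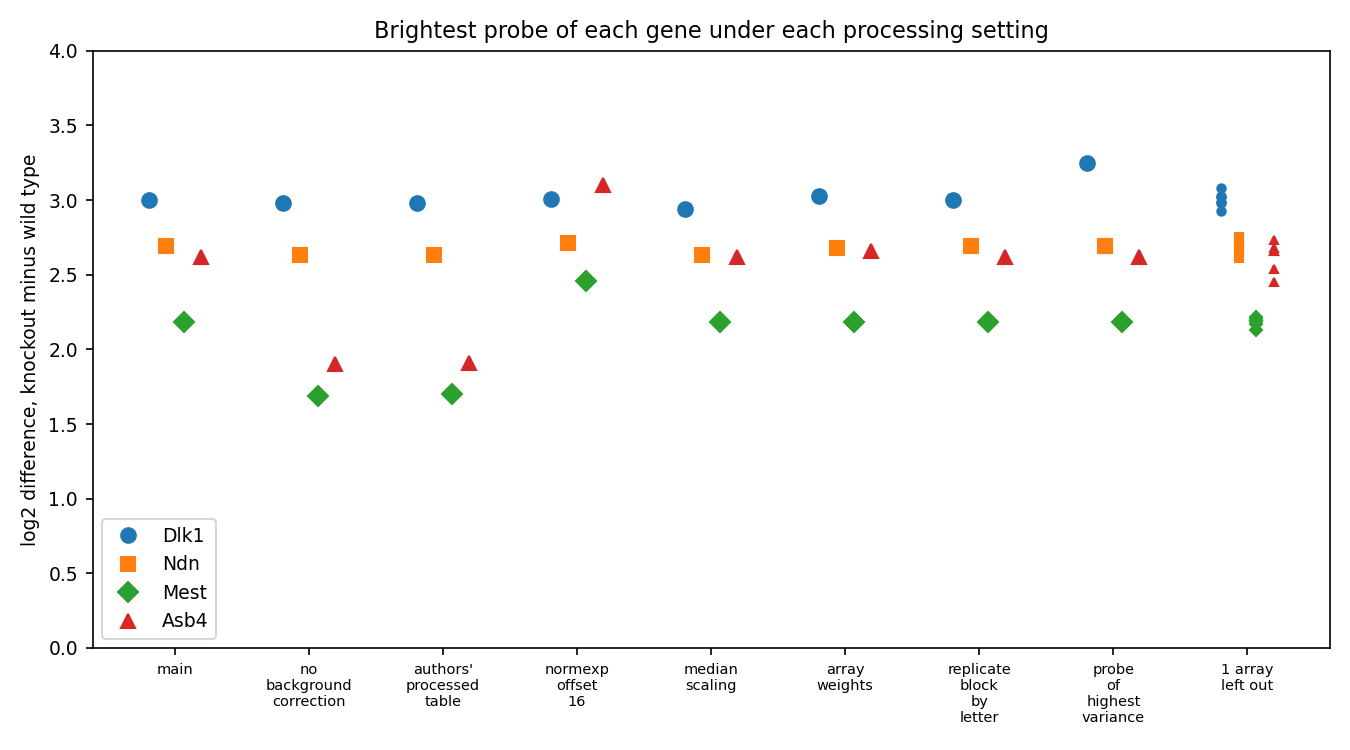
Log2 difference, CypD knockout minus wild type, of the brightest probe of each gene under the main setting and several alternatives. Small points leave out 1 array each. The replicate block by letter cannot alter the difference, and the probe of highest variance is another probe for Dlk1 only. Dlk1 and Ndn keep within 2.93 to 3.25 and 2.61 to 2.75, while Mest and Asb4 move more, from 1.69 to 2.46 and from 1.9 to 3.1.

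The genes whose profile over the 6 arrays was most like each member were found by Euclidean distance between log2 levels centred on each probe's mean. The 6 arrays share 2 groups, so a small distance mostly reflects a like difference between the genotypes. Nearest to Dlk1 were Mgp, the matrix Gla protein of cartilage and vessels (distance 0.25), the T-box factor Tbx1 (0.27) and the homeobox factor Gsc (0.29). The wild-type mean of the Gsc probe, 6.61, lay below the testing limit of 6.9, so that probe was tested through its knockout arrays. Nearest to Ndn were Tenm3 (0.26), the DNA helicase Pif1 (0.27) and Xlr4a (0.32), which belongs to a family of near-identical X-linked genes and is uncertain for that reason. Nearest to Mest were the basement membrane protein Nid2 (0.12), Prxl2a (0.13) and the matrix metalloproteinase Mmp2 (0.15). Nearest to Asb4 were Wdr82 (0.37), Xlr4a (0.38) and Pif1 (0.38). Among the members the closest pair was Dlk1 and Ndn, at 0.45, and the farthest was Dlk1 and Mest, at 1.02.

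Other imprinted genes did not move as a group in 1 direction. Of 77 listed genes outside the 4, 31 had a tested probe: 10 were higher, 10 were lower and 11 did not pass the test, so 64.5% were called, against 43.6% of all named genes (21.8% in each direction). Their median log2 difference was 0.18, against 0.01 over all named genes. Over the alternatives the number higher ran from 7 to 14 and the number lower from 5 to 10. All 10 higher calls held wherever the gene was tested, while 5 of the 10 lower calls ended under at least 1 alternative. The genes were listed as imprinted in the mouse, and whether each is imprinted in these fibroblasts was not tested. In the clusters of the 4 genes, 6 of 10 tested genes were higher and 2 lower (median 0.82). Elsewhere in the genome 4 of 21 were higher and 8 lower (median 0.02).

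Beside Dlk1, the noncoding RNA Rian, which is expressed from the maternal allele, had log2 levels of 8.84, 8.47 and 8.09 in CypD knockout cells and 6.61, 6.73 and 6.56 in wild-type cells. It rose by 1.83 (limma adjusted p = 1.03e-06). Its wild-type mean of 6.64 lay below the testing limit of 6.9, so the probe was tested through its knockout arrays, and the size ranged from 1.21 to 2.29 over the alternatives. Knockout array C was the lowest of the knockout and still above all wild-type arrays. Dio3, the deiodinase gene at the far end of that cluster, differed by 0.37 and did not pass the test (adjusted p = 0.0631); it passed without knockout array C or wild-type array C (adjusted p = 0.03 to 0.0321).

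Beside Ndn, the paternally expressed ubiquitin ligase gene Mkrn3 stood at 9.57, 9.53 and 9.47 in the knockout and 7.64, 7.65 and 7.74 in the wild type, a rise of 1.85 (3.6-fold, limma adjusted p = 3.37e-09). The size ranged from 1.47 to 2.04 over the alternatives, so the fold of Mkrn3 holds only for the processing used here. Snurf, which shares its start with the splicing gene Snrpn, rose by 1.34 on its brightest probe (adjusted p = 3.15e-07). Its other probes gave -0.18 (adjusted p = 0.453) and 0.52 (adjusted p = 0.00477), and a signal of Snrpn cannot be separated from it, so its change is uncertain. Ube3a, the maternally expressed ubiquitin ligase of neurons, differed by 0.17 (adjusted p = 0.338) on its brightest probe and by 0.36 (adjusted p = 0.0321) on its other.

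Beside Mest, Copg2, a coatomer subunit gene whose end overlaps that of Mest, rose by 0.45 (adjusted p = 0.00883, limma). In the cluster of Asb4, Peg10, a paternally expressed gene derived from a retrotransposon, had log2 levels of 8.73 ± 0.16 in CypD knockout cells and 7.25 ± 0.19 in wild-type cells (SD, n = 3) and rose by 1.48 (limma adjusted p = 6.07e-07). Ppp1r9a, the gene of the actin-binding protein neurabin, rose by 1.19 (adjusted p = 5.29e-05). The neighbouring paraoxonase genes went the other way: Pon3 fell by 1.26 (adjusted p = 2.02e-07; its other probe by 0.87) and Pon2 by 0.30. The call of Pon2 ended without knockout array A or wild-type array A (limma adjusted p = 0.0691 to 0.0737). It also ended when the limma fit left out the intensity trend (adjusted p = 0.0643). Both genes called lower in the 4 clusters lie beside Asb4.

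Elsewhere in the genome the largest rise was that of Cdkn1c, the maternally expressed cell cycle inhibitor p57, with log2 levels of 12.1, 12.05 and 11.97 in CypD knockout cells and 9.67, 9.46 and 9.74 in wild-type cells (2.42, limma adjusted p = 1.35e-10). Peg3, a paternally expressed zinc finger gene, rose by 1.41, Kcnq1ot1, the noncoding RNA that silences the cluster of Cdkn1c, by 0.89, and Grb10, an adaptor that dampens insulin and IGF signalling, by 0.87. Grb10's other probe rose by 0.50. Ampd3, an AMP deaminase gene, fell by 1.33, the chloride channel gene Ano1 by 1.26, the proteoglycan gene Dcn by 0.64 and Impact by 0.39. Of the other genes called lower, Commd1, Blcap, H13 and Zfp64 differed by -0.24, -0.36, -0.32 and -0.23, and each lost its call when single arrays were left out, at adjusted p between 0.0663 and 0.141. These arrays were knockout B and C and wild-type B and C for Commd1, knockout B and C and wild-type C for Blcap, all of the knockout and wild-type B and C for H13, and all of the knockout and wild-type A for Zfp64. Other probes of H13 differed in both directions, from -0.18 to 0.25, and the other Zfp64 probe gave -0.25 without passing (adjusted p = 0.0923). Tssc4, Osbpl5, Dhcr7, Igf2r, Qpct, Gnas, Slc38a4, Trappc9 and Peg13 did not pass the test, with differences between -0.22 and 0.34. Dhcr7 passed without wild-type array B or C (adjusted p = 0.0275 to 0.045), Qpct without wild-type array C (adjusted p = 0.0277) and Slc38a4 without wild-type array C (adjusted p = 0.0276).

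**Figure D3:**
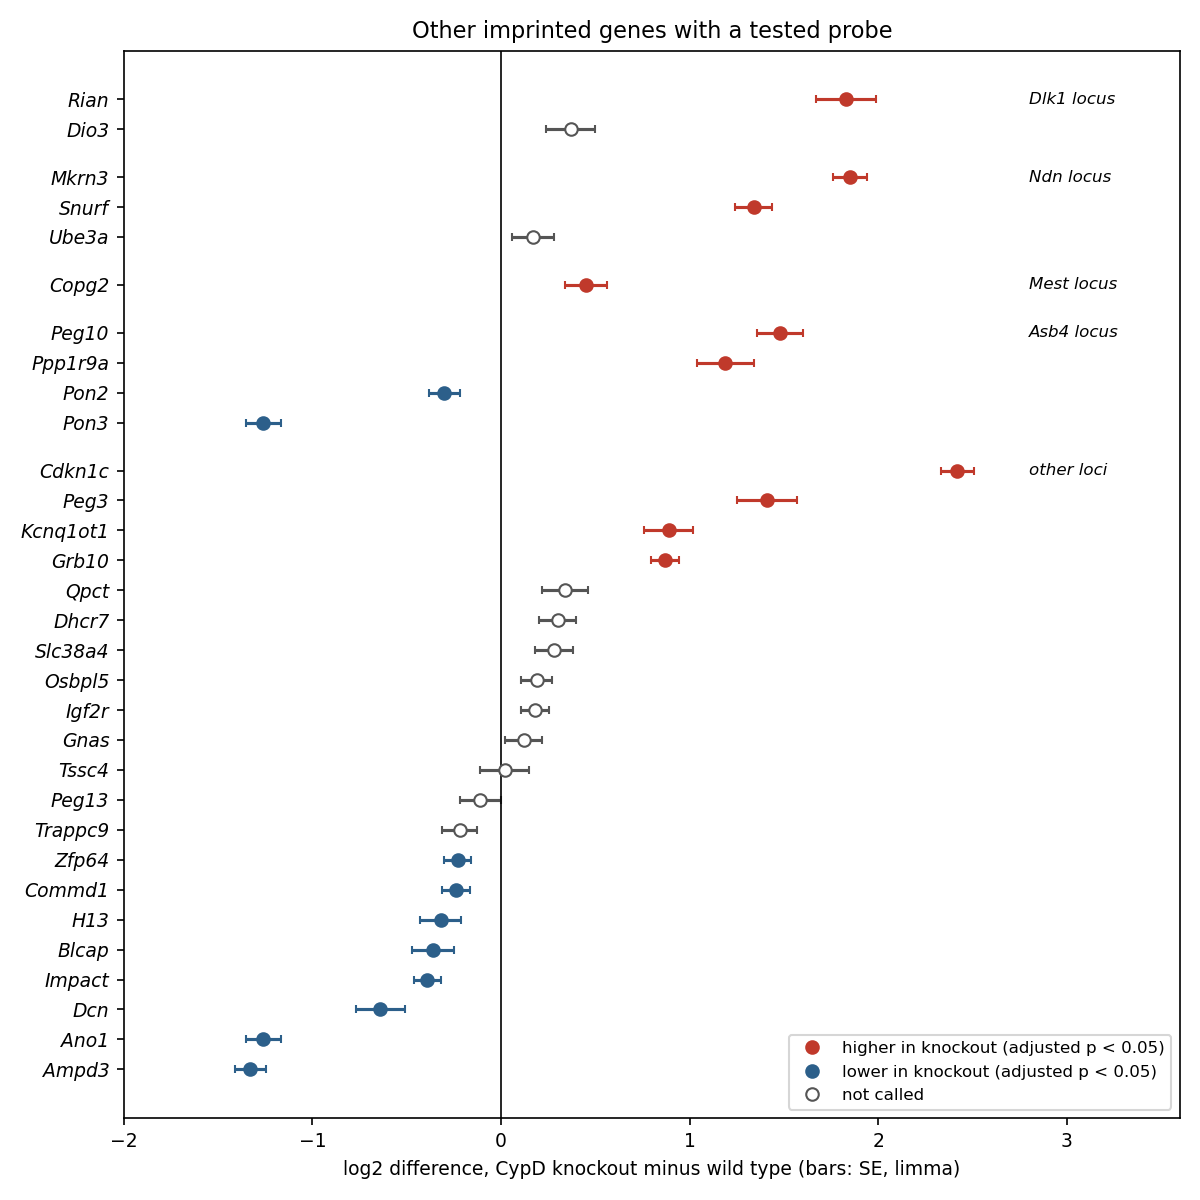
Log2 difference, CypD knockout minus wild type, of the 31 tested imprinted genes outside the 4, sorted by locus, with bars of the standard error. Rian, Mkrn3, Snurf, Peg10 and Ppp1r9a lie above 1 among genes of the 4 clusters, and Cdkn1c (2.42) stands highest of all.

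The genes lying next to the members on the chromosome were also examined, imprinted or not. Of the 15 protein-coding genes to each side of each member, 120 were listed and 55 had a tested probe: 20 were higher, 7 lower and 28 not called. That is 49.1% called, against 43.6% of all named genes, with a median of 0.17. Of these, 9 are also on the imprinted list, and without them 46 remain, 15 higher and 5 lower (43.5% called, median 0.16). Counting both directions together, the flanking genes that are not imprinted were called about as often as named genes in general. Their calls were uneven by direction, 15 higher and 5 lower, while named genes had 21.8% in each direction. Their median of 0.16 stood against 0.01 over all named genes. Under median scaling, the calls among all flanking genes were 15 higher and 8 lower. The reason for this lean was not tested.

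Around Dlk1, 16 genes were tested and the differences were small, from -0.6 to 0.37. Eml1, a microtubule-associated protein gene, fell by 0.60 (limma adjusted p = 8.25e-06) and Evl, an actin regulator gene, rose by 0.35 (adjusted p = 0.00543). Ppp2r5c, Wdr20, Mok and Tecpr2 were called higher by 0.28, 0.24, 0.35 and 0.27, and their calls ended when single arrays were left out (adjusted p between 0.0519 and 0.148). These were knockout C and wild-type A for Ppp2r5c, knockout A and C and wild-type A and B for Wdr20, knockout A and B and wild-type A and B for Mok, and all of the knockout and wild-type A and B for Tecpr2. The other Ppp2r5c probe gave 0.18 (adjusted p = 0.29). Around Ndn, 9 were tested: Mkrn3 and Snurf, described above, Mtmr10, a phosphoinositide phosphatase family gene, which rose by 0.55 (adjusted p = 0.000307), and Nipa1, whose call (0.23) ended without any 1 of the knockout arrays or wild-type A or B (adjusted p = 0.0848 to 0.148). Around Mest, 15 were tested. The podocalyxin gene Podxl fell by 0.94 (adjusted p = 2.19e-05) and the aldo-keto reductase gene Akr1b8 by 0.44, while Smo, the transducer of Hedgehog signals, rose by 0.39 and Klhdc10 by 0.31. The other Smo probe gave 0.30 and did not pass (adjusted p = 0.0748). Akr1b10 was called higher by 0.26 and lost that call without any 1 of the knockout arrays or wild-type B (adjusted p = 0.0515 to 0.146); it resembles Akr1b8 in sequence, so both are uncertain.

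Around Asb4, 15 were tested, and the gene next to it had the largest difference of all flanking genes. Pdk4, the pyruvate dehydrogenase kinase that limits glucose oxidation, stood at 11.52, 11.48 and 11.74 in CypD knockout cells and at 8.54, 8.76 and 8.66 in wild-type cells. The groups were 2.72 log2 units apart at their nearest arrays, and the rise was 2.93 (7.62-fold, limma adjusted p = 4.4e-11). Gng11, a G protein gamma subunit gene, rose by 0.76, and C1galt1, Rpa3 and Mios by 0.36, 0.36 and 0.27, while Vps50 and Col1a2 fell by 0.30 and 0.36. The calls of Mios (wild-type array A, adjusted p = 0.0513) and Col1a2 (knockout array B and wild-type array A, adjusted p = 0.0511 to 0.0674) ended without those arrays.

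**Figure D4:**
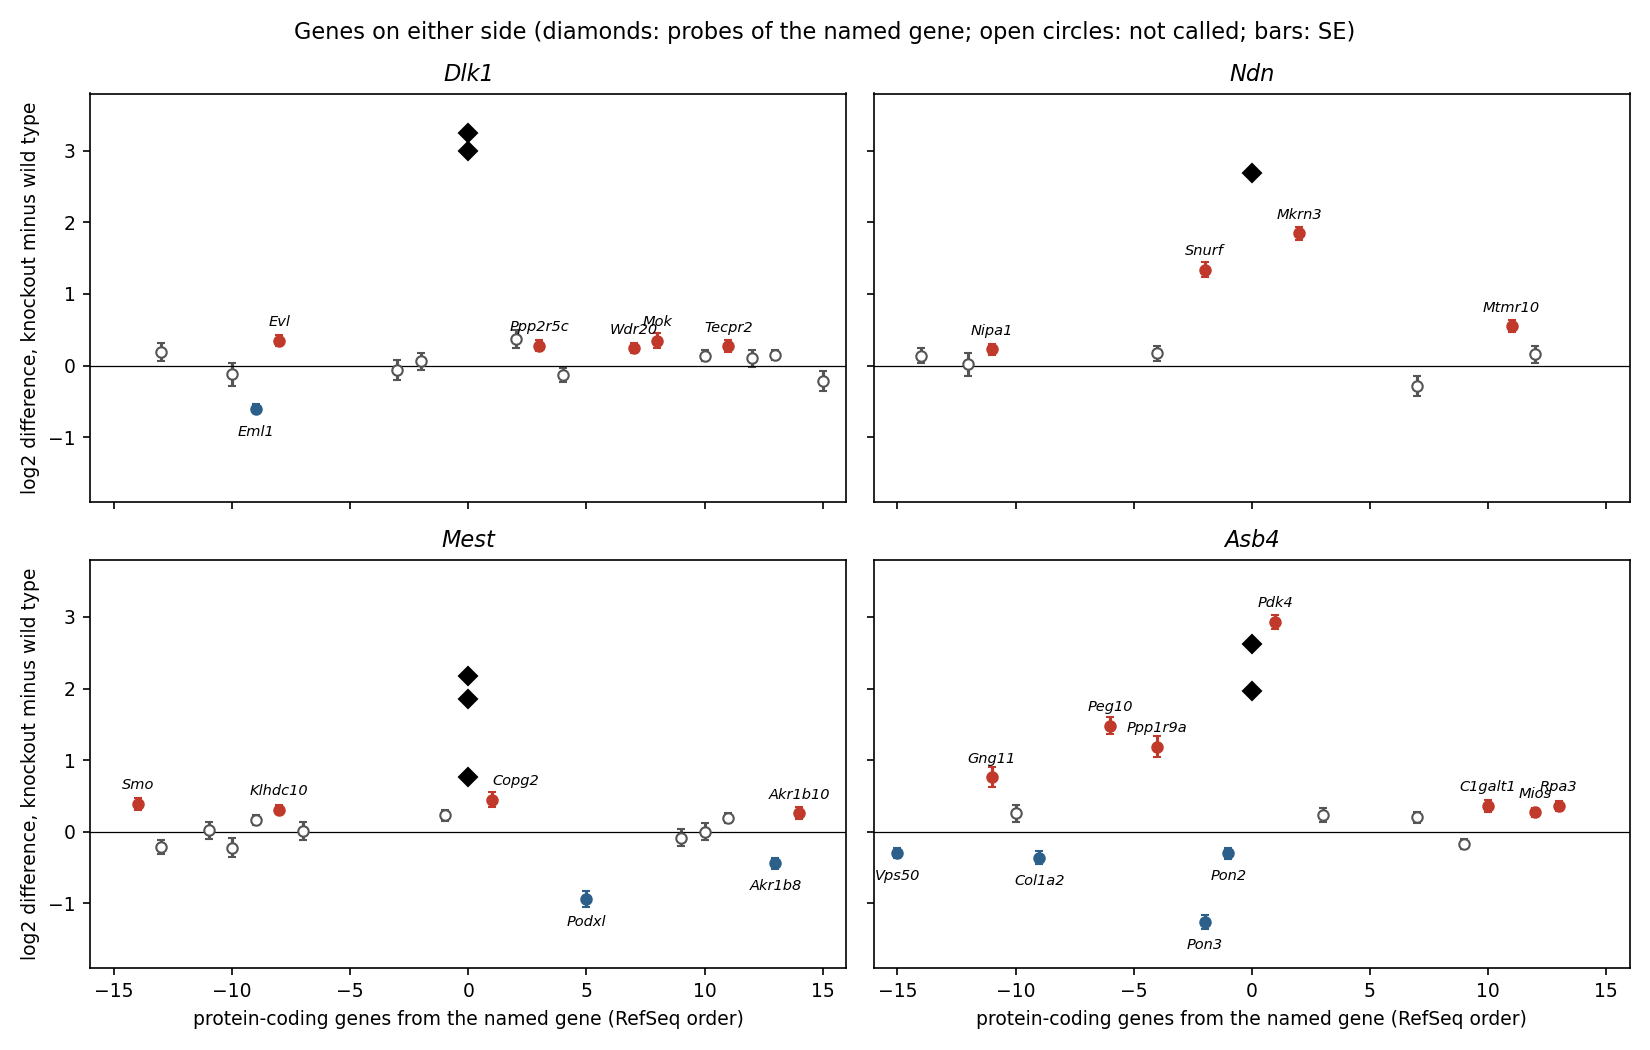
Log2 difference, CypD knockout minus wild type, of the tested genes up to 15 protein-coding genes to each side of each member, by their order along the chromosome; diamonds mark the members. Pdk4, next to Asb4, is the highest flanking gene (2.93), and the tested genes around Dlk1 keep between -0.6 and 0.37.

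Genes that act with or beside the members were grouped by role. Regulators of imprints, such as methyltransferases and their cofactors, had 11 tested members, of which 3 rose, 0 fell and 8 did not pass (27.3% called, against 43.6% of all named genes, with a median of 0.16). Tet1, which oxidises methylated cytosine, rose by 1.02 (limma adjusted p = 1.38e-05) and Ezh2, the histone methyltransferase of Polycomb, by 0.35. The other probe of Ezh2 gave 0.17 and did not pass (adjusted p = 0.351). Trim28 rose by 0.20, a call that ended under median scaling (adjusted p = 0.208) and without any 1 of the knockout arrays or wild-type A or B (adjusted p = 0.0623 to 0.107). Smchd1 and Eed differed by 0.01 and 0.15 and did not pass.

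For Dlk1, the Notch pathway had 13 tested members, of which 1 rose, 5 fell and 7 did not pass. That is 46.2% called, against 43.6% of all named genes and 21.8% in each direction, so the total was close but most calls were lower. The median was -0.2, against 0.01 over all named genes. Hey1, a transcriptional target of Notch, stood at 8.41 ± 0.028 in CypD knockout cells and 11.22 ± 0.14 in wild-type cells (SD, n = 3) and fell by 2.81 (limma adjusted p = 4.54e-11). Nrarp, a feedback inhibitor and target of Notch, fell by 0.93. The receptor gene Notch1 had a difference of -0.67 (adjusted p = 8.36e-05), while the gamma-secretase gene Psen2 rose by 0.72. Psenen (-0.19) and Maml2 (-0.20) did not pass. Both passed under median scaling (adjusted p = 0.0346 and 0.0416), and Maml2 passed without knockout array B (adjusted p = 0.0417). Genes of adipocyte differentiation and of the reported actions of Dlk1 had 19 tested members, 10 higher, 4 lower and 5 not called (73.7% called, against 43.6% of all named genes and 21.8% in each direction, with a median of 0.33). Lpl, lipoprotein lipase, rose by 2.09 (adjusted p = 2.06e-08), Sox9, which Dlk1 is reported to induce in preadipocytes, by 1.10, Ebf2 by 1.08 and Gata2, which restrains adipogenesis, by 0.68. Fn1 (0.24) and Cebpd (0.21) did not pass; both passed without knockout array B (adjusted p = 0.0201 and 0.0375). Of the other Fn1 probes, 1 gave 0.39 (adjusted p = 0.007) and the rest 0.09 and -0.01, so its probes disagree. Cebpd also passed with the filter at the 70th percentile (adjusted p = 0.0445) and in the authors' processed table (adjusted p = 0.0487).

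For Ndn, MAGE family genes and known partners of necdin had 21 tested members, 10 higher, 3 lower and 8 not called (61.9% called, against 43.6% of all named genes and 21.8% in each direction, with a median of 0.29). Fez1, a kinesin adaptor that binds necdin, had the largest rise in any of these lists. It stood at 11.03 ± 0.074 in CypD knockout cells and 7.11 ± 0.16 in wild-type cells (SD, n = 3), a rise of 3.92 (15.1-fold, limma adjusted p = 5.59e-12), and its other probe rose by 3.15. The wild-type mean lay near the testing limit of 6.9. Over the alternatives the rise of Fez1 ran from 3.23 to 4.31, so the fold holds only for the processing used here. Tro, a MAGE family gene, rose by 0.78 and E2f5 by 0.61, while the homeobox gene Dlx2 fell by 0.74. Magee1 (0.14) and Nsmce1 (0.11) did not pass.

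For Asb4, other SOCS-box genes and subunits of the cullin ligase had 21 tested members, 5 higher, 3 lower and 13 not called (38.1% called, against 43.6% of all named genes, with a median of 0.11). Cish, an inhibitor of cytokine signals, rose by 1.31 (limma adjusted p = 9.71e-08), Socs5 by 0.55 and Spsb1 by 0.35. Id2, a reported substrate of Asb4, rose by 0.29 on its brightest probe, but another of its probes fell by 0.75 (adjusted p = 4.88e-05), so its direction is uncertain. Wsb1 (0.11) and Wsb2 (0.03) did not pass. For Mest, the alpha/beta hydrolases had 25 tested members, 2 higher, 11 lower and 12 not called (52.0% called, against 43.6% of all named genes and 21.8% in each direction, with a median of -0.16). Abhd1 rose by 1.78 (adjusted p = 1.54e-08), while Ndrg1 fell by 1.07 and Abhd14b by 0.83. The other probe of Abhd14b gave -0.28 (adjusted p = 0.0339), a smaller fall. Mgll, monoacylglycerol lipase, fell by 0.95 on its brightest probe, while its other probe gave -0.40 and did not pass (adjusted p = 0.0594). Ppme1 (0.13) and Abhd17a (-0.08) did not pass.

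Some imprinted genes, such as Grb10, act on the IGF axis. Its list had 17 tested members, 6 higher, 5 lower and 6 not called (64.7% called, against 43.6% of all named genes and 21.8% in each direction, with a median of 0.08). Igfbp5, an IGF-binding protein gene, rose by 1.5 (limma adjusted p = 2.75e-06). The wild-type mean of this Igfbp5 probe, 6.81, lay below the testing limit, and the size ranged from 0.99 to 1.93 over the alternatives, another of its probes included. Igfbp4 fell by 1.36 (adjusted p = 4.56e-08). Foxo1, a transcription factor restrained by insulin and IGF signals, fell by 1.04 on its brightest probe, and its other probe gave -0.45 (adjusted p = 0.029). Igf2bp1 (0.04) did not pass.

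Marker lists were read beside these results, because the members are also expressed in other embryonic cells. Of all named genes 43.6% were called, 21.8% in each direction, and the counts below stand against that share. Fibroblast markers had 12 tested members, 4 higher, 4 lower and 4 not called (66.7% called). Col1a1 stood at 13.36 ± 0.036 in CypD knockout cells and 13.99 ± 0.058 in wild-type cells (SD, n = 3). It was bright in both but was called lower in the knockout, by 0.63 (limma adjusted p = 1.76e-06). Col3a1 and Pdgfra rose by 1.13 and 1.47, and S100a4 fell by 1.62. Cartilage markers had 3 tested of 14 listed, 2 of them called (66.7%). Col2a1, the collagen of cartilage, rose by 2.28 and Sox9 by 1.10, and the summed intensity of the 3 was 15466 to 17431 in the knockout, against 6147 to 7452 in the wild type. Fat markers had 2 tested of 11, Lpl and Pparg, and their sum was 1939 to 2026 in the knockout, against 1184 to 1467 in the wild type; the rise of Pparg (0.34) lost its call without knockout A or C or wild-type A or B (adjusted p = 0.0602 to 0.0916). Neural and glial markers had 7 tested of 20, 0 higher and 3 lower (42.9% called, about the share of all named genes). Their sum was 8874 to 9129 in the knockout and 11492 to 13830 in the wild type. Stmn2 fell by 2.79, Mbp and Nes differed by -0.95 and -0.94, and the other Nes probe by -0.50. Of the other lists, skeletal muscle had 2 tested (0 higher, 1 lower), cardiac muscle 1 (0 higher, 1 lower), endothelium 5 (2 higher, 2 lower), epithelium 5 (1 higher, 1 lower), leukocytes 2 and erythroid cells 1 (0 called in both). The hepatoblast list, cells in which Dlk1 is also known, had 0 tested of 14, so the levels of these markers were not read. The part that these differences have in the levels of the 4 genes was not tested.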

How the data were processed

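RNA of 3 CypD knockout and 3 wild-type fibroblast samples was measured on 1 array each. The authors deposited linear intensity values per probe for each array, without detection p-values, control probes, slide or scan date, per the file headers; the submitters' processing notes name BeadStudio 3.0. A deposited processed intensity table of the series, which lists 12534 probes against 45281 on each array, was used for gene names (10653 probes with 1 symbol, 5 with several and 1876 with none) and as an alternative. Symbols were updated through the RefSeq table of GRCm38.p6.

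Intensities were corrected with normexp (offset 50), log2-transformed and then quantile-normalized (limma 3.58.1, R 4.3.3). The 27168 probes with a mean above the 40th percentile (log2 6.9) were fitted (lmFit, eBayes with trend), and p-values were adjusted by Benjamini-Hochberg over all of them, with 0.05 as threshold. The offset compresses differences of dim probes. A gene is its tested named probe of highest mean intensity, and that probe was kept under the alternatives other than the probe of highest variance. The fit was tested on simulated data. Groups and letters came from the labels. Arrays of the same letter did not deviate together (r of -0.0899 to 0.101, against -0.209 to 0.15 for different letters), so the letters were not used as pairs.

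The text names every probe of the 4 genes, Ppif, all tested imprinted genes, all called flanking genes, up to 4 called genes of lowest p and up to 2 not called of highest intensity from each further list other than the marker lists, and the 3 nearest profiles per member. Of the marker lists only some such genes are named, and the rest enter the counts alone. The members and lists were chosen with earlier results of these data known. Alternatives changed the background correction, normalization, dim-probe limit, variance trend, probe choice and arrays used. Probe sequences were not used here.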

Additional observations from a re-analysis of the deposited data

How the results depend on the processing

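The sign of the 4 members' difference held under all 15 alternatives. Of these, the changed limits on dim probes and the replicate block by letter cannot alter a member's difference. With no background correction, Mest differed by 1.69 and Asb4 by 1.90 log2 units; with an offset of 16 by 2.46 and 3.10; in the authors' processed table by 1.70 and 1.91. With the probe of highest variance Dlk1 differed by 3.25. The number of other imprinted genes called lower, 10, was 5 without the intensity trend and 6 to 8 with 1 array left out. The number called higher, 10, was 7 with the filter at the 70th percentile, where fewer probes are tested, and 14 without wild-type array C. With 5 genes on each side, 9 flanking genes were called, against 27, and without the clusters of the 4 genes 12 imprinted genes were called, against 20; fewer genes are tested in both. Id2 reversed to -0.75 with the probe of highest variance. With the array letter as a replicate block, 5273 probes were called in all, with 20 imprinted and 26 flanking genes among them, against 5423, 20 and 27; the letters share only a name. Calls over all probes ran from 4079 to 5903. Of 119 named genes, 33 changed their call under at least 1 alternative. Single arrays were not the only source of such changes. Ppp2r5c, Wdr20, Akr1b10 and Nipa1 also lost their calls under median scaling and without the intensity trend. Commd1, Blcap and H13 lost theirs without the trend as well. Dhcr7 also passed with array weights, with the filter at the 70th percentile and in the authors' processed table. For the other shifts the cause was not tested. Without detection p-values, dim probes such as those of Asb4 cannot be told from background in wild-type cells, and the 3 arrays a group limit the precision.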
